A study of Mus musculus with 2 samples.

Results

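Mir143 and Mir145a are neighbouring microRNA genes known from smooth muscle. They are 2 of the 1973 microRNA genes counted in the embryonic mouse liver. Both were chosen by gene symbol with their results in view: Mir143 had already been seen to be abundant and to differ between the libraries, so its level, its ratio between libraries and any call made of it are given here as description and support nothing. The libraries hold RNA shorter than 30 nucleotides from livers of B6NCrl embryos (a C57BL/6 substrain) at embryonic day 11.5, pooled over males and females. The embryos are labelled healthy, and the labels name no treatment. Both libraries belong to 1 group and are labelled biological replicates of it. Replicate 2 came from a pool whose size the labels do not give, and replicate 1 from a pool of 109 embryos. The pools hold whole livers, so blood, endothelium, mesenchyme and hepatic cells all contribute, and more cells of a type cannot be told apart from more RNA per cell.

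Mir143 and Mir145a are processed from a common primary transcript. Serum response factor and its partner myocardin drive that transcript in smooth muscle, where both microRNAs favour the contractile state over the proliferative one. Drosha and Dicer then cut each hairpin separately, so the mature products of a shared transcript need not stand at equal levels. In the embryo the locus is also active in the early heart and in cells around blood vessels.

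Both genes lie on the minus strand of chromosome 18 of mm10. Mir143 (ENSMUSG00000065445.2) spans 61649196 to 61649258, which is 63 bases. Mir145a (ENSMUSG00000065592.1) follows it downstream at 61647825 to 61647894, which is 70 bases, and 1301 bases separate them. The annotations disagree on the host. RefSeq places both hairpins inside the long noncoding RNA gene Carmn, which it draws from 61645878 to 61665538 of GRCm38.p6, the same assembly as mm10, while GENCODE M21 ends Carmn at 61649625, 366 bases upstream of Mir143, and then has no gene over either hairpin. Whether they fall in an exon or an intron of the RefSeq transcript was not analysed here. On the plus strand, GENCODE M21 places the long noncoding RNA Bvht, known in the mouse from commitment to the cardiovascular lineage, with its end 352 bases from Mir145a. Neither long RNA was among the counted genes, and no other counted gene lay within 10 kb of the pair.

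Neither hairpin shares 20 consecutive bases with another of the 1894 counted genes matched in GENCODE M21. The remaining counted genes had no sequence to compare. The longest stretch that Mir145a shares with Mir145b, its namesake at 69022199 to 69022273 of the same chromosome, is 17 bases. Mir145b had 0 counts in both libraries. Taking 3 counts as the limit that a count of 0 allows, this is up to 1.89 counts per 1000000 assigned counts (CPM) in replicate 2 and 0.897 CPM in replicate 1, and the upper ends of the 95% exact Clopper-Pearson intervals are 2.33 CPM in replicate 2 and 1.10 CPM in replicate 1. Almost all reads over the pair lay on its own strand: the opposite strand held 1 read at Mir143, in replicate 2, and 0 at Mir145a. Which column holds which strand was read from the values, so this is no test of strand.

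Reads assigned to the strand of a microRNA gene numbered 1584499 for replicate 2, or 29.0% of its reads, and 3344673 for replicate 1, or 26.2%. The leading microRNAs known from hepatocytes, red cell precursors and endothelium were abundant in both libraries. They were picked as the leading genes, so they do not test the label of the tissue. Mir122, the leading microRNA of hepatocytes, had 34487 CPM in replicate 2 and 30679 in replicate 1. Other microRNAs known from hepatocytes stood lower, down to Mir802 with 3 counts in replicate 2 and 9 in replicate 1. Mir451a, which matures in red cell precursors, had 9793 and 7495 CPM in replicates 2 and 1, and the endothelial Mir126a had 80051 and 57443 CPM in replicates 2 and 1.

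By assigned counts, Mir143 was among the most abundant microRNA genes in these libraries, and Mir145a was present at a small fraction of it. Mir143 had 37387 counts in replicate 2 and 38370 counts in replicate 1. Relative to all assigned counts this was 23595 CPM in replicate 2 (95% exact Clopper-Pearson interval 23360 to 23833) and 11472 CPM in replicate 1 (11358 to 11587), with a mean of 17534 ± 8573 CPM (SD, n = 2). Replicate 2 was the higher library, and the intervals, which cover counting error only, lay far apart. Mir145a had 758 counts in replicate 2 and 1590 counts in replicate 1. That is 478 CPM in replicate 2 (445 to 514) and 475 CPM in replicate 1 (452 to 499), with a mean of 477 ± 2.12 CPM (SD, n = 2). The interval of replicate 1 lay inside that of replicate 2. The libraries differed by 3.002 CPM, less than counting error, so a difference was not detectable at this depth.

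**Figure D1:**
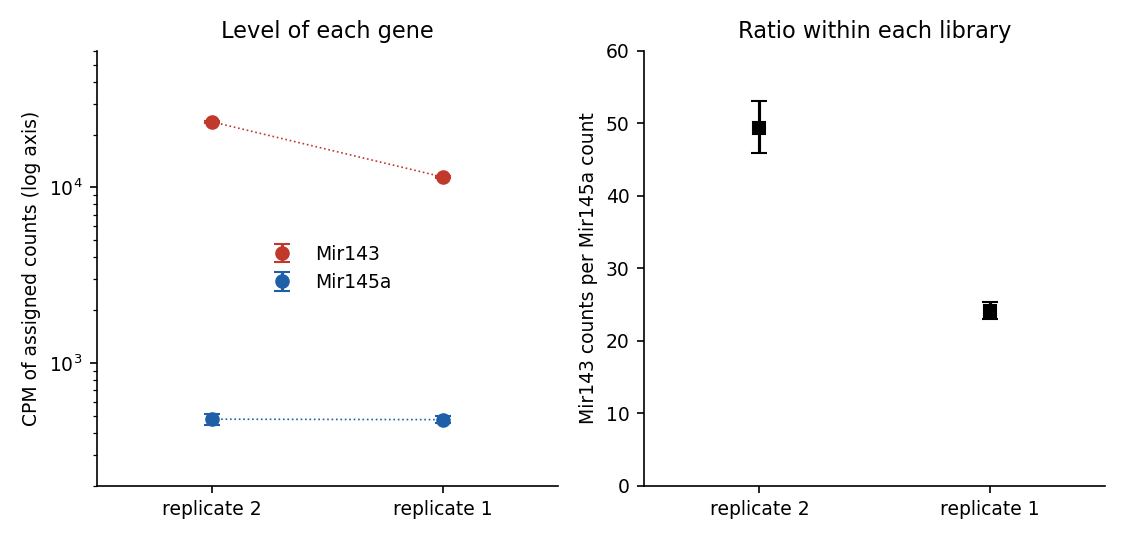
CPM of Mir143 and Mir145a on a log axis (left) and Mir143 counts per Mir145a count (right), in replicate 2 and replicate 1. Bars are 95% exact intervals for counting error, and lie within the marker for Mir143. Mir143 stands at 23595 CPM in replicate 2 and 11472 in replicate 1, Mir145a at 478 and 475 CPM, and the ratio at 49.3 and 24.1, in the same order.

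Per base of annotated gene the contrast was nearly the same by construction, since the hairpins are 63 and 70 bases long. Mir143 had 375 CPM per base in replicate 2 and 182 CPM per base in replicate 1, and Mir145a had 6.83 and 6.79 CPM per base in replicates 2 and 1. By CPM per base, Mir143 ranked 7 in replicate 2 and 19 in replicate 1 among the 1894 genes with an annotated length, while Mir145a ranked 137 in replicate 2 and 140 in replicate 1. By mean CPM, Mir143 held rank 16 of all counted genes, between Mir99b at 18039 ± 1727 CPM and Mir541 at 16230 ± 7368 CPM (SD, n = 2). These neighbours did not differ from Mir143 beyond its spread. Mir145a held rank 147 by mean CPM, between Mir106a at 477 ± 119 CPM and Mir495 at 473 ± 60.5 CPM (SD, n = 2), and was not separated from either beyond their spread. By CPM in replicates 2 and 1, Mir143 ranked 9 and 22, and Mir145a 143 and 147. Reads mapping to several places, 22.6% in replicate 2 and 22.0% in replicate 1, were not assigned. The 923 counted genes that share 20 bases with another can be counted too low. The pair shares no such stretch and can rank ahead of them for that reason.

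The ratio of the genes within a library needs no scaling between libraries. In replicate 2 there were 49.3 Mir143 counts per Mir145a count (95% exact interval 45.9 to 53.1), and in replicate 1 there were 24.1 (23.0 to 25.4). The mean ratio was 36.7 ± 17.8 (SD, n = 2). Per base of annotated gene the ratios were 54.8 in replicate 2 and 26.8 in replicate 1. Small RNA libraries recover different microRNAs with different efficiency, so these are ratios of reads and not of molecules.

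Mir145a made up 1.99% of the counts of the pair in replicate 2 (1.85 to 2.13) and 3.98% in replicate 1 (3.79 to 4.18). The log2 ratio of Mir143 to Mir145a was thus 1.03 higher in replicate 2 than in replicate 1, a 2.04-fold difference (95% exact conditional interval 1.87 to 2.23, counting error only). The difference came almost wholly from the Mir143 side: Mir143 was 2.06-fold higher in replicate 2 by CPM, and Mir145a 1.01-fold. Both genes together held 2.41% of the assigned counts in replicate 2 (2.38 to 2.43) and 1.19% in replicate 1 (1.18 to 1.21), a mean of 1.80 ± 0.857% (SD, n = 2). With 2 libraries of 1 group, these values show how far the 2 libraries differed and belong to no condition. Each pool gave 1 library, so pool and library preparation cannot be told apart.

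All genes with at least 10 summed counts were compared between the libraries to give the setting for these values. Scaling used the trimmed mean of M values (TMM). A gene was called when a two-sided exact binomial test, adjusted after Benjamini and Hochberg over all 454 genes tested, fell under 0.05 and the libraries differed at least 2-fold. By these rules 33 genes, or 7.27%, were called, and 22 genes, or 4.85%, were called higher in replicate 2. Mir143 was 1 of those 22, with a log2 ratio of replicate 2 over replicate 1 of 1.10, and Mir145a was not called, at 0.07. Mir143 was chosen with this contrast known, so its call is a description and nothing is read from it. The median log2 ratio over all 454 genes was 0.01, with quartiles of -0.45 and 0.39, so Mir145a lay inside the middle of the distribution and Mir143 outside it. The binomial test knows counting noise only. In edgeR's exact test, with the biological coefficient of variation between pools set to 0.2, Mir143 was not called, 1 gene was, and 51 genes had an unadjusted p under 0.05.

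Of the 28 genes with a mean of at least 10000 CPM, 3 were called: Mir411, Mir143 and Mir431. The log2 ratio of Mir143 was the second largest in size among the 28, after Mir411 at 1.17. The median difference between libraries was 1.28-fold over the 257 genes that averaged 100 or more counts. Of the 110 genes with a mean from 100 to under 1000 CPM, 16, counting Mir145a itself, had a log2 ratio no larger in size than that of Mir145a.

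**Figure D2:**
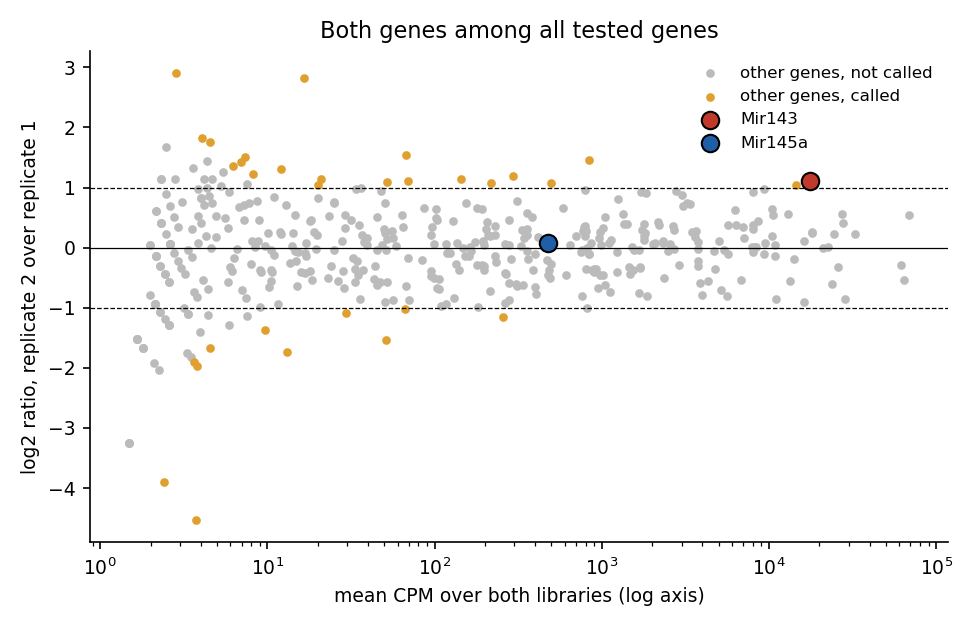
Log2 ratio of replicate 2 over replicate 1 after TMM scaling against the mean CPM on a log axis, for the 454 tested genes. Dashed lines mark a 2-fold difference. Mir143 lies just above the upper line at 1.10 and Mir145a near 0 at 0.07.

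Neighbouring microRNA genes on 1 strand often come from 1 transcript, so they give a background for a ratio that differs between libraries. There were 96 such pairs within 10 kb with a mean of 100 or more counts in both genes. Genes under that mean were left out before pairs were formed, so a pair can have a less counted gene between its members. No counted gene lies between Mir143 and Mir145a. The pairs were built from 133 genes, so pairs in a cluster share genes. For every pair the log2 ratio of the upstream to the downstream gene was taken in each library, with 0.5 added to each count. It differed at least 2-fold between the libraries in 16 pairs, or 16.7%, and Mir143/Mir145a was one of them. By size of the difference it ranked 14 of 96, well above the median difference of 1.49-fold and below the largest. The ratio of 15 other pairs thus differed at least 2-fold between the same libraries.

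The pairs nearest to it in rank were Mir539/Mir382 of the imprinted Dlk1-Dio3 region and the erythroid Mir144/Mir451a. Mir539/Mir382 had 0.0341 upstream counts per downstream count in replicate 2 and 0.0698 in replicate 1. Mir144/Mir451a had 0.124 in replicate 2 and 0.0613 in replicate 1, where Mir144 had 1214 CPM in replicate 2 and 460 in replicate 1. As with Mir143 and Mir145a, the upstream gene of the erythroid pair differed more between libraries. Unlike Mir145a, Mir451a was also higher in replicate 2, at 9793 CPM against 7495 in replicate 1. The largest difference was that of Mir181a-2/Mir181b-2, with 0.132 in replicate 2 and 0.0385 in replicate 1, a pair with a gene of shared sequence. The smallest was that of Mir19b-1/Mir92-1, with 0.00717 in replicate 2 and 0.00709 in replicate 1. Among the 66 pairs in which neither gene shares 20 bases, Mir143/Mir145a ranked 8, and 10 differed at least 2-fold.

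The level gap within the pair was also wide but not the widest. The mean log2 ratio of Mir143 to Mir145a was 5.26 per base of annotated gene, against a median absolute value of 2.33 over the 96 pairs. Counting this pair, 14 pairs had a gap at least as wide as its own. Some of these hold a gene of shared sequence, such as Mir19b-1/Mir92-1. Whether reads lost to several places widen the gap of such pairs was not tested. Upstream genes had the higher count in both libraries in 46 pairs, as Mir143 does, and downstream genes in 41. The order turned between libraries in the remaining 9 pairs.

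**Figure D3:**
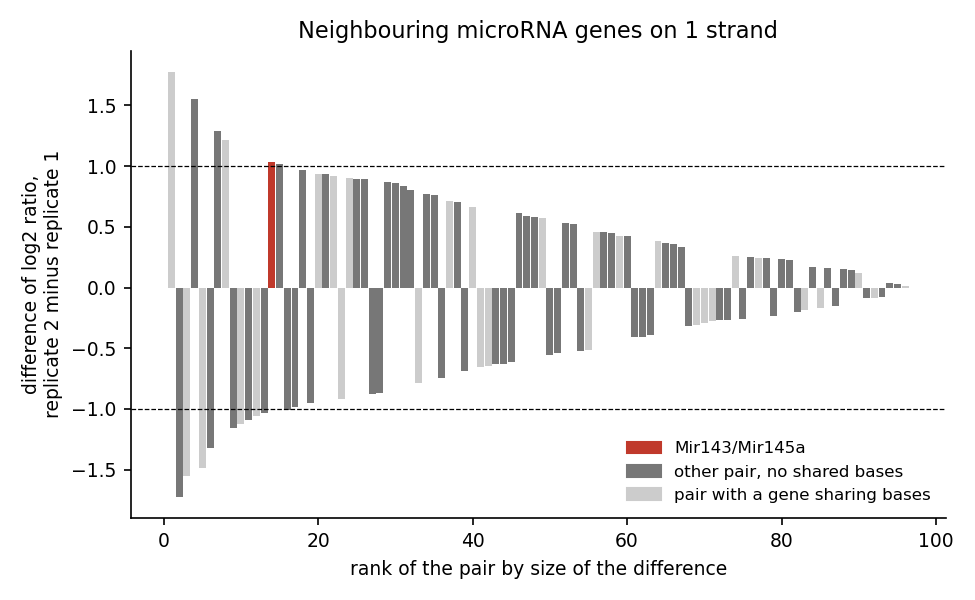
Difference between libraries in the log2 ratio of the upstream to the downstream gene, replicate 2 minus replicate 1, for 96 neighbouring pairs ordered by size. Neighbours were taken among genes with a mean of 100 or more counts. Dashed lines mark 2-fold. Mir143/Mir145a, in red, ranks 14 at 1.03, and light bars are pairs with a gene that shares 20 bases with another counted gene.

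MicroRNAs of striated muscle, several of which answer to serum response factor in heart and skeletal muscle, took a small share of the counts. Of 8 counted genes besides the pair, 5 had at least 10 counts in both libraries, and together they held 0.0797% of the assigned counts in replicate 2 and 0.0884% in replicate 1. Mir1a-1, Mir133a-1 and Mir133a-2, the defining muscle microRNAs, had 0 counts, but each shares 20 bases with another counted gene, so their reads can fall among those mapping to several places. Of the 5 tested genes, 1 was called, beside 7.27% of all tested genes. This was Mir133b of skeletal muscle, with 17 counts in replicate 2 and 13 in replicate 1. It also shares bases with other counted genes. The median log2 ratio of the 5 genes was 0.03, beside 0.01 for all tested genes.

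The remaining 4 tested genes of this group were not called. Mir208b and Mir499, which lie in cardiac and slow-muscle myosin genes, had 324 and 160 CPM in replicate 2 and 331 and 166 CPM in replicate 1. Mir208a of the cardiac myosin gene Myh6 had 157 CPM in replicate 2 and 272 in replicate 1, and Mir206 of skeletal muscle had 145 and 112 CPM in replicates 2 and 1. Per count of Mir208b there were 72.7 counts of Mir143 in replicate 2 and 34.7 in replicate 1, and there were 1.47 and 1.44 counts of Mir145a in replicates 2 and 1.

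MicroRNAs described in mesenchymal cells held 1.32% of the assigned counts in replicate 2 and 1.40% in replicate 1, a mean of 1.36 ± 0.0537% (SD, n = 2). All 5 genes of the list were detected, and their median log2 ratio was -0.11, beside 0.01 for all tested genes. Of the 5, 0 were called, beside 7.27% of all tested genes, which is too few genes to read from. Mir214, cut from the Dnm3os transcript, had 8782 CPM in replicate 2 and 9911 in replicate 1, and Mir140, known from cartilage, had 3915 and 3373 CPM in replicates 2 and 1. Per count of Mir214 there were 2.69 counts of Mir143 in replicate 2 and 1.16 in replicate 1. In replicates 2 and 1, Mir199b had 413 and 556 CPM, Mir199a-2 had 80.8 and 110 CPM, and Mir199a-1 had 8.84 and 8.67 CPM. All 3 share 20 bases with other counted genes, so their counts can be too low. The part of cell composition in the Mir143 difference was not tested.

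MicroRNAs that have been tied to the switch of smooth muscle cells between contractile and proliferative states had a median log2 ratio of -0.08 over 7 tested genes, 2 of them higher in replicate 2. Of the 7, 0 were called, beside 7.27% of all tested genes. Mir21a, which is broadly expressed and has been tied to proliferating smooth muscle, had 22464 CPM in replicate 2 and 29328 in replicate 1. There were thus 1.05 counts of Mir143 per count of Mir21a in replicate 2 and 0.391 in replicate 1, so the order of these genes turned between libraries. Mir221 and Mir222, repressors of Kit linked to proliferating smooth muscle, stood at 261 and 169 CPM in replicate 2 and at 419 and 228 CPM in replicate 1. Mir31 had 500 and 480 CPM in replicates 2 and 1, close to Mir145a in both libraries. In replicates 2 and 1, Mir24-2 had 230 and 153 CPM, Mir26a-2 had 43.5 and 46.9 CPM and Mir26a-1 had 15.8 and 17.6 CPM. These last 3 share bases with other counted genes.

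**Figure D4:**
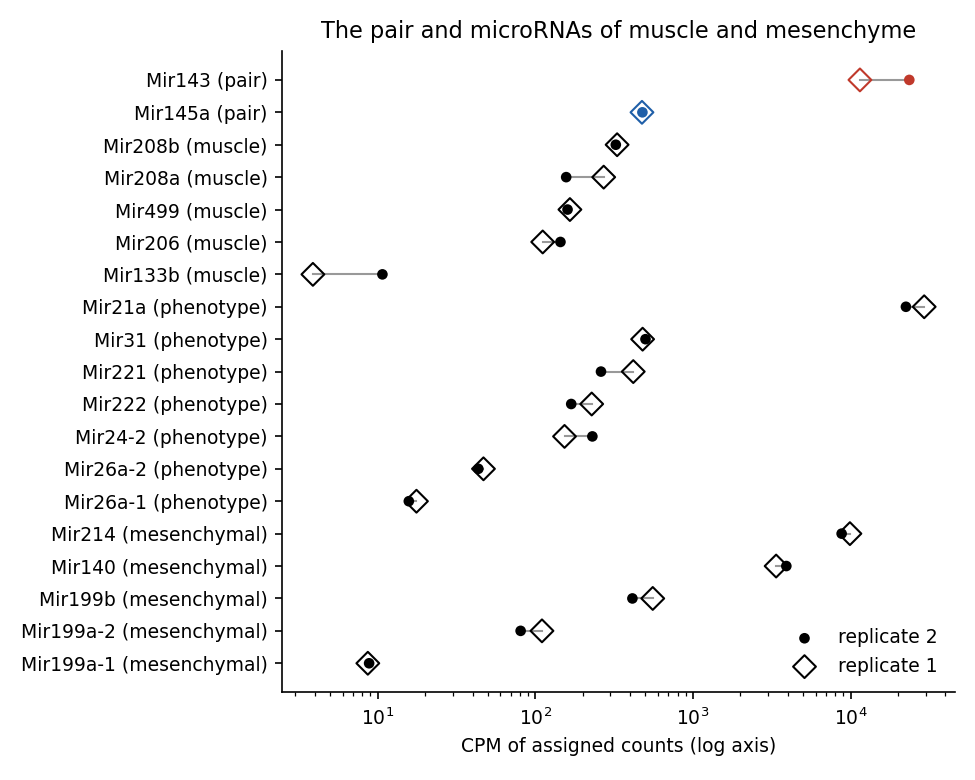
CPM on a log axis in replicate 2 (filled circles) and replicate 1 (open diamonds) for Mir143, Mir145a and the detected genes of the muscle, smooth muscle phenotype and mesenchymal lists. Mir143 stands at 23595 and 11472 CPM in replicates 2 and 1, while the circle and the diamond of Mir145a coincide at 478 and 475 CPM.

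Markers of other cell types of the liver lay on both sides of 0 between the libraries. The endothelial Mir126a had a log2 ratio of replicate 2 over replicate 1 of 0.54 and was not called. Among 6 tested genes known from hepatocytes, 2 were higher in replicate 2, with log2 ratios of 0.81 for Mir192 and 0.23 for Mir122. The other 4 were lower: Mir802 at -0.30, Mir148a at -0.43, Mir194-2 at -0.74 and Mir194-1 at -1.37, of which Mir194-1 and Mir194-2 each share 20 bases with another counted gene. The median of that list was -0.37, beside 0.01 for all tested genes. Of the erythroid genes Mir144 had 1.46, Mir451a 0.45 and Mir486 -0.05, with a median of 0.45. Of 4 tested leukocyte genes, Mir223 had 0.11, while Mir150 had -0.46, Mir342 -0.79 and Mir155 -0.87, with a median of -0.62. That list took 0.813% of the assigned counts in replicate 2 and 1.04% in replicate 1. Beside 7.27% of all tested genes, called genes numbered 1 of 6 in the hepatocyte list (Mir194-1, with 8 counts in replicate 2 and 48 in replicate 1), 1 of 3 in the erythroid list (Mir144) and 0 of 4 in the leukocyte list. With so few genes, these counts say nothing about a list. Per count of Mir126a there were 0.295 counts of Mir143 in replicate 2 and 0.1997 in replicate 1. For Mir145a the same ratio was 0.00598 in replicate 2 and 0.00828 in replicate 1.

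The genes most like each member were taken as the 5 with the smallest distance in log2(CPM + 1) over the 2 libraries, which mostly reflects level. Nearest to Mir143 were Mir411, at 25847 CPM in replicate 2 and 12012 in replicate 1, and Mir431, at 19258 and 9805 CPM in replicates 2 and 1. Both belong to the Dlk1-Dio3 region on chromosome 12, and Mir411 shares bases with another counted gene. Mir99b, Mir487b and Mir23a followed at distances from 0.625 to 0.647, against 0.147 for Mir411 and 0.370 for Mir431. Nearest to Mir145a, with values in replicates 2 and 1, were Mir493 at 480 and 497 CPM, Mir31, Mir495, Mir96 at 440 and 554 CPM, and Mir673 at 431 and 396 CPM, at distances from 0.0630 to 0.303. Neither member was among the nearest 5 of the other.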

How the data were processed

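Small RNA of embryonic liver was sequenced in 2 libraries. The deposited files hold whole-number read counts per gene, not normalised, in 3 columns without a header. The columns were taken as either strand, strand of the gene and opposite strand, as read from the values. Alignment was to mm10 with annotation M4 per the deposited descriptions of the files. The aligner, counter and trimming are not given in the sources used here. The 4 opening classes that name no gene (unmapped, several places, no feature, ambiguous) held the remaining 71.0% and 73.8% of reads in replicates 2 and 1 and stayed out of library sizes.

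From these, CPM was computed over same-strand assigned counts. Symbols and coordinates came from GENCODE M21 (1894 of 1973 identifiers matched). Further coordinates came from RefSeq. TMM factors and the exact test with an assumed spread used edgeR 4.0.16 in R 4.3.3, with DESeq2 1.42.0 for alternative size factors. Other work used Python 3.11.15, scipy 1.17.1 and pandas 2.3.3. The calling procedure was run on simulated counts that held counting noise only. That run says nothing about spread between libraries beyond counting noise. Members, lists, pair rule and tests were chosen with earlier results of these data known. Named genes were the members, counted genes within 10 kb, the nearest 5, detected members of 3 lists, the extreme and neighbouring pairs, and the leading gene of 3 cell type lists. The other hepatocyte, erythroid and leukocyte genes, Mir541, Mir106a and genes without counts were named after their values were seen. Intervals are binomial within 1 library and so cover counting error only. No molecular identifiers are described, so copies of 1 molecule may count as separate reads and the intervals can be too narrow.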

Additional observations from a re-analysis of the deposited data

How the results depend on the processing

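Of 46 alternative values, 39 stayed within the spread or on the same side of the threshold. With n = 2, a mean that leaves out 1 replicate always stays within the SD, so those values could not move. The ratio of the pair could hardly move with a value added to each count or with reads on either strand. The 39 therefore do not measure how robust the results are. Taken over all reads, Mir143 averaged 4921 and Mir145a 132 per 1000000 reads and the pair held 0.505%, by construction. The small SD of Mir145a made its mean move with other denominators too, to 433 CPM with reads on either strand and 512 CPM without Mir126a. From 100 summed counts 15 of 285 tested genes were called, beside 33 of 454 as reported. With the assumed biological coefficient of variation of 0.2, 1 of 454 was called. Leaving out each replicate gave 11472 to 23595 CPM for Mir143, 475 to 478 CPM for Mir145a, 1.19 to 2.41% for the pair and 4.59 to 5.62 for their log2 ratio. Across scalings the log2 ratio between libraries ran from 1.04 to 1.10 for Mir143 and from 0.01 to 0.07 for Mir145a. The pair ranked 7 of 74 within 2 kb, 15 of 104 within 50 kb, 17 of 119 from a mean count of 10 and 8 of 60 from 1000. Restricting pairs to genes that share no bases was chosen after seeing the data. No paired analysis was possible because both libraries belong to 1 group. Of the pair, Mir145a has the fewer counts, 758 in replicate 2 and 1590 in replicate 1, and so the wider relative intervals.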
